A study of Mus musculus with 12 samples.

Results

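Interferon-stimulated genes are the genes that cells switch on when interferons bind their receptors, and 35 of them were followed here through mouse skin sampled after tick bites. The 35 were taken by gene symbol from the 25070 rows of the expression table, and all 35 were found. Among them, 5, Cxcl9, Cxcl10, Irf1, Gbp2 and Cd274, lean towards interferon gamma and were kept apart. The other 30 are called type I-leaning here. That name stands for the rest of the list, and the leaning of each gene was not measured. The 12 libraries were made from total RNA of skin, sampled 4 days after the bite, and the unbitten libraries carry the same 4-day label. They fall into bitten skin of a first exposure (n = 3), of mice labelled ticks 2x (n = 3), of mice labelled ticks 3x (n = 3) and of a mouse labelled saliva immune (n = 1), and unbitten naive skin (n = 2). The labels give no strain, sex, age, tick species or allele, do not say whether each library is a separate animal, and do not say whether 2x and 3x include the sampled infestation or how saliva immunity was raised. P-values therefore measure only the spread between these libraries, which may in part be technical.

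Type I interferons act through a receptor on nearly every cell, which activates STAT2 and brings it with IRF9 to the interferon-stimulated response element, a short sequence in the promoters of many interferon-stimulated genes. Interferon gamma, made by T cells and natural killer cells, acts through the gamma-activated site and raises, among others, chemokines that attract T cells. Keratinocytes, fibroblasts, endothelium and leukocytes of the skin all respond to both, and many of these genes block viral replication while others report the state of inflammation.

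Expression was deposited as CPM, the reads of a gene scaled to the total of its library. Depth estimated from the CPM of 1 read lay between 12500000 and 29800000 reads per library, so that 3 reads, used as the floor of detection, came to between 0.101 and 0.24 CPM. Groups were compared with limma on log2(CPM + 1), and a gene was called when its Benjamini-Hochberg adjusted p over the 17064 tested genes was below 0.05. All fold changes are log2 differences on that scale, which understates the change of low genes. Keratinocyte genes marked every library as skin, with Krt5, the keratin of the basal layer, at 1660 to 4846 CPM over the 9 bitten libraries of the 3 tick groups and at 2068 and 3356 CPM in naive skin. Hair follicle content differed between libraries of 1 group, with list means of 1.01 to 9.18 on the log2(CPM + 1) scale in the same bitten libraries and 1.28 to 7.38 in naive skin. The sample titles put first exposure and saliva immune in a series numbered 4 and the other 8 libraries in a series numbered 6, so that first exposure and title series cannot be told apart.

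The promoters are shown for the letters of the 2 motifs that the pathway's factors are known to bind. Windows of 300 bases, from 250 before to 50 after a transcription start in RefSeq (GRCm38.p6), matched 27 of the 35 members by symbol. The core of the interferon-stimulated response element was searched as GAAA followed, after any 2 bases, by GAAA, and the gamma-activated site as TTCNNNGAA, each on both strands, where matches may overlap one another. The response element core occurred in 12 of 22 type I-leaning members with a window (54.5%) and in 2 of 5 gamma-leaning members, against 3.99% of the 27025 genes in the RefSeq table. The gamma-activated site occurred in 5 of 22 and in 1 of 5, against 9.55% of those genes. A match is a description of the letters and not a site shown to be used. The windows of 4 members that lay low in bitten skin and of Irf1, which carries the other motif, are printed with response element cores (or, in Irf1, the gamma-activated site) in capitals. Ifit3 (chr19:34583279-34583578, plus strand) holds cores starting 156 and 122 bases before its start, and Ifit1 (chr19:34640639-34640938, plus strand) holds them 104 and 85 bases before. Gbp2 (chr3:142620413-142620712, plus strand) holds 1 core 59 bases before its start, and Cmpk2 (chr12:26468965-26469264, plus strand) matched neither motif in this window. Irf1 (chr11:53769764-53770063, plus strand) has the gamma-activated site 90 bases before its start.
Ifit3: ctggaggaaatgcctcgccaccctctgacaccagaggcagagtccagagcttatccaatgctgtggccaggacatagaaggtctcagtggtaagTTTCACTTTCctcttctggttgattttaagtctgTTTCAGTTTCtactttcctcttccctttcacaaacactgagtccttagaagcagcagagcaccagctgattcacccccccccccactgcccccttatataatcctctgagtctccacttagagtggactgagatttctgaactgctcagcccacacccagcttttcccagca
Ifit1: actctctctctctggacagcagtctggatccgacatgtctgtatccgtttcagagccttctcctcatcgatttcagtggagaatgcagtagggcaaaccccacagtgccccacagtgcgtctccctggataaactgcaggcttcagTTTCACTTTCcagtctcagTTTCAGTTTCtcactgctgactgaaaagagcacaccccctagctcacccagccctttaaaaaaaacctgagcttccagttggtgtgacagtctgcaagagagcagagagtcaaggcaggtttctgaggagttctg
Gbp2: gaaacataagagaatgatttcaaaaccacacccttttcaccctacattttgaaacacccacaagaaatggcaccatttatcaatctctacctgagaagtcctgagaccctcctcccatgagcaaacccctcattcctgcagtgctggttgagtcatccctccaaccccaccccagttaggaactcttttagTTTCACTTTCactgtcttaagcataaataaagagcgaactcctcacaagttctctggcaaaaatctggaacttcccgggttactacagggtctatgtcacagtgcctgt
Cmpk2: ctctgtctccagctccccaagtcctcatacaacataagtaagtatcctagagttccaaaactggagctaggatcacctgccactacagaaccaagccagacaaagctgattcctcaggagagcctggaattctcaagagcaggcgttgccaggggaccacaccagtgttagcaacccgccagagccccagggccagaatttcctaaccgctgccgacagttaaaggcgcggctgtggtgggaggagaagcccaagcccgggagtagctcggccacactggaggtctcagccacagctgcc
Irf1: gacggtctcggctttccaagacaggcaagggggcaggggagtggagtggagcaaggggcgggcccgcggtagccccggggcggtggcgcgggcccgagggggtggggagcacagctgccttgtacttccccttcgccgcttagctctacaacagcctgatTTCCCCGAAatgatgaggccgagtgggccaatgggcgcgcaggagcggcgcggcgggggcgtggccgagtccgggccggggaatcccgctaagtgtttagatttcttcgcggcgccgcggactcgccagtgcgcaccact

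The members were expressed in every library, at low to moderate levels. Per kilobase of annotated exon, the highest mean levels over the 12 libraries were those of Bst2 (21.3 CPM per kb), Gbp2 (11.4), Ifi35 (10.2), Isg15 (9.30) and Stat2 (8.85), and the lowest were those of the chemokines Cxcl10 (0.863) and Cxcl9 (0.533). Without correction for length, the 5 members with the highest mean CPM over 12 libraries were Parp14 (52.5 CPM), Stat2 (52.4 CPM), Irf9 (42.4 CPM), Oas2 (37.1 CPM) and Ifih1 (33.6 CPM). The ratio of the highest to the lowest library lay between 1.73 for Xaf1 and 12.1 for Cxcl10, and it was 10.1 for Rsad2 and 9.50 for Cd274.

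On average over the 3 tick groups, with 9 bitten libraries, most type I-leaning members lay slightly lower than in naive skin. No member passed the test over all genes. Single libraries overlapped in the mean of the 30 on the log2(CPM + 1) scale. It was 4.33 in ticks 2x replicate 2, 4.30 in ticks 3x replicate 2 and 4.16 in first exposure replicate 3, against 4.31 and 4.15 in naive skin. The remaining libraries of the 3 groups were below both. Of the 30, 27 had a fold change below 0 in bitten against naive skin, with a median of -0.33 and a range of -1.08 to 0.39, while 42.0% of all tested genes were below 0 and the median of all genes was 0.06. Of the gamma-leaning members 4 of 5 were below 0, with a median of -0.12. limma called 0 of 35 members, against 7 genes of 17064 (0.041%). At an unadjusted p under 0.05, 6 of the 30 and 1 of the 5 were lower and none was higher, against 4.74% of all genes that were lower at that level and 11.2% in either direction. No member lay above both naive libraries in all 9 bitten libraries (4.02% of all genes). All 9 bitten libraries lay below both naive libraries for 9 of the 30 (Ifit1, Ifit2, Ifit3, Cmpk2, Ifih1, Mx2, Rtp4, Gbp3 and Ddx58) and for Gbp2 of the 5, against 3.31% of all genes. Leaving out 1 library at a time, the type I-leaning median lay between -0.47 (without ticks 2x replicate 2) and -0.18 (without naive replicate 1), and it was -0.22 without ticks 3x replicate 3. The gamma-leaning median was 0.01 without naive replicate 2. Without first exposure replicate 2 and ticks 3x replicate 3, the libraries with the lowest type I-leaning means of their groups (a choice made after seeing the data), 20 of the 30 were below 0 with a median of -0.12, and the gamma-leaning median was 0.07.

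**Figure D1:**
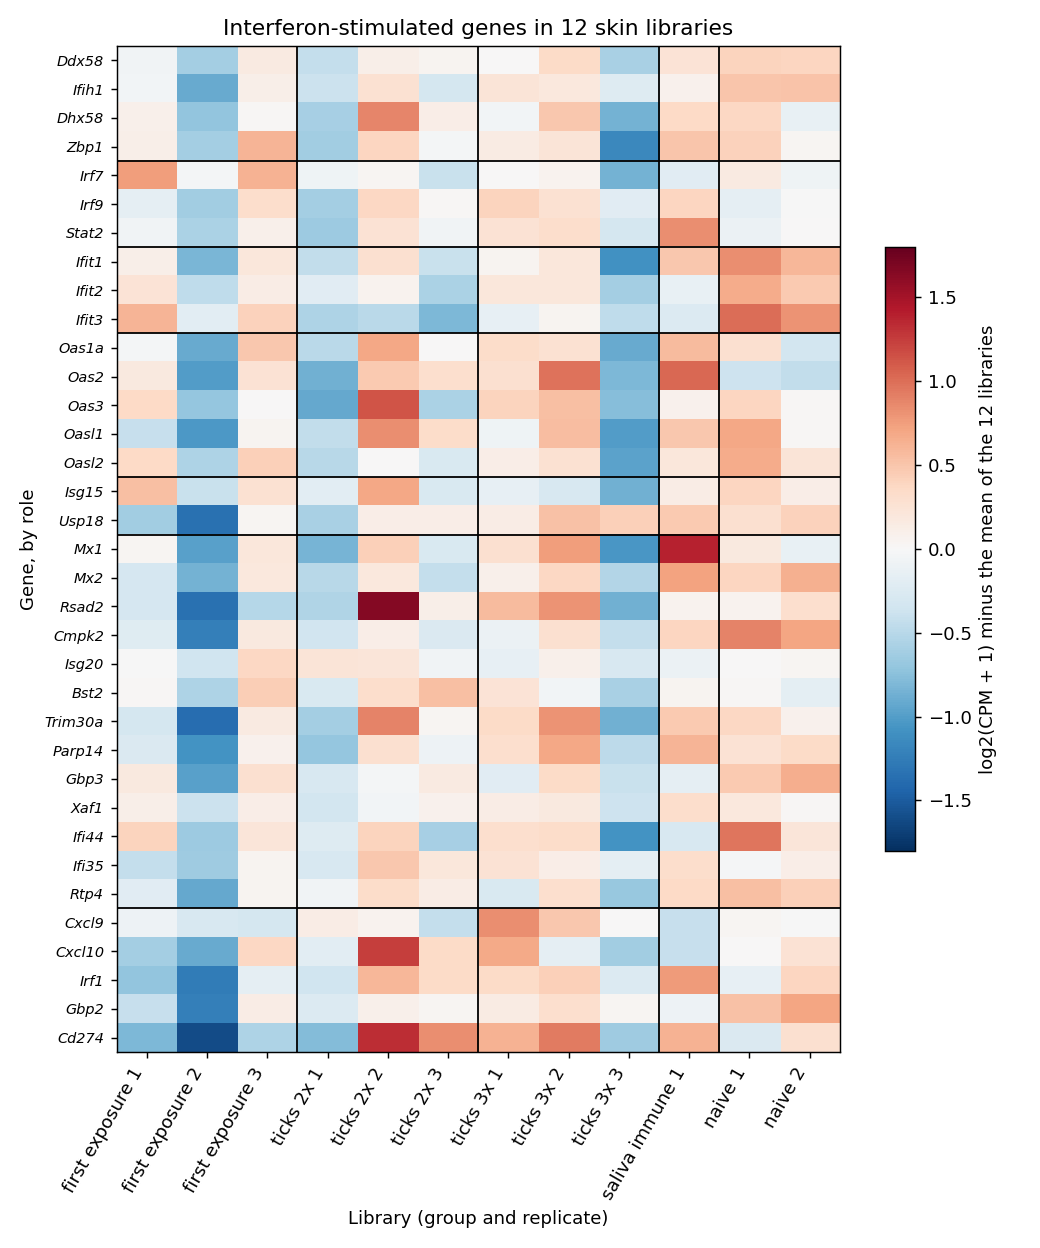
Log2(CPM + 1) of each of the 35 genes minus its mean over the 12 libraries, with genes in rows by role and libraries in columns by group and replicate, red above and blue below the mean. First exposure replicate 2 and ticks 3x replicate 3 are blue in most rows, and the IFIT rows are red in both naive libraries.

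The IFIT genes, whose proteins bind foreign RNA and block its translation, had the lowest median fold change of the member families, -0.93 in bitten against naive skin, beside -0.42 for the sensors, -0.26 for the OAS family and -0.33 for the other antiviral effectors. Ifit3 (chromosome 19, 34583531 to 34588731) had 16.6, 9.11 and 14.4 CPM after first exposure, 6.81, 7.22 and 5.59 CPM in 2x and 9.35, 10.9 and 7.34 CPM in 3x, against 22.0 and 19.2 CPM in naive skin. Every bitten library was below both naive libraries, and the 2x libraries lay below those of every other group. Ifit3 averaged 9.69 CPM over the bitten libraries and 20.6 CPM in naive skin, a fold change of -1.08 (SE 0.22, limma adjusted p = 0.193), and it ranked 67th of the 17064 genes by p. Within the title series shared with naive skin, 2x and 3x together stood at -1.31 (SE 0.23, limma adjusted p = 0.19). Ifit3 has a close copy, Ifit3b, between which the counting may split reads; Ifit3b averaged 5.34 ± 1.93 CPM after first exposure, 3.78 ± 1.28 CPM in 2x and 4.14 ± 0.508 CPM in 3x, against 9.01 ± 1.84 CPM in naive skin (SD, n = 3, 3, 3 and 2).

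Ifit1 and Ifit2 also lay below naive skin. Ifit1 had 12.7, 6.18 and 13.6 CPM after first exposure, 8.35, 14.5 and 8.68 CPM in 2x and 12.2, 13.6 and 4.98 CPM in 3x, against 21.8 and 18.2 CPM in naive skin (bitten against naive -0.93, SE 0.38, limma adjusted p = 0.414). Ifit2 had 16.4, 9.64 and 15.0 CPM after first exposure, 11.7, 14.2 and 8.88 CPM in 2x and 15.9, 15.8 and 8.57 CPM in 3x, against 22.2 and 19.3 CPM in naive skin (-0.68, SE 0.27, limma adjusted p = 0.403). In both genes no bitten library reached the lower naive library, while the bitten groups overlapped one another throughout.

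**Figure D2:**
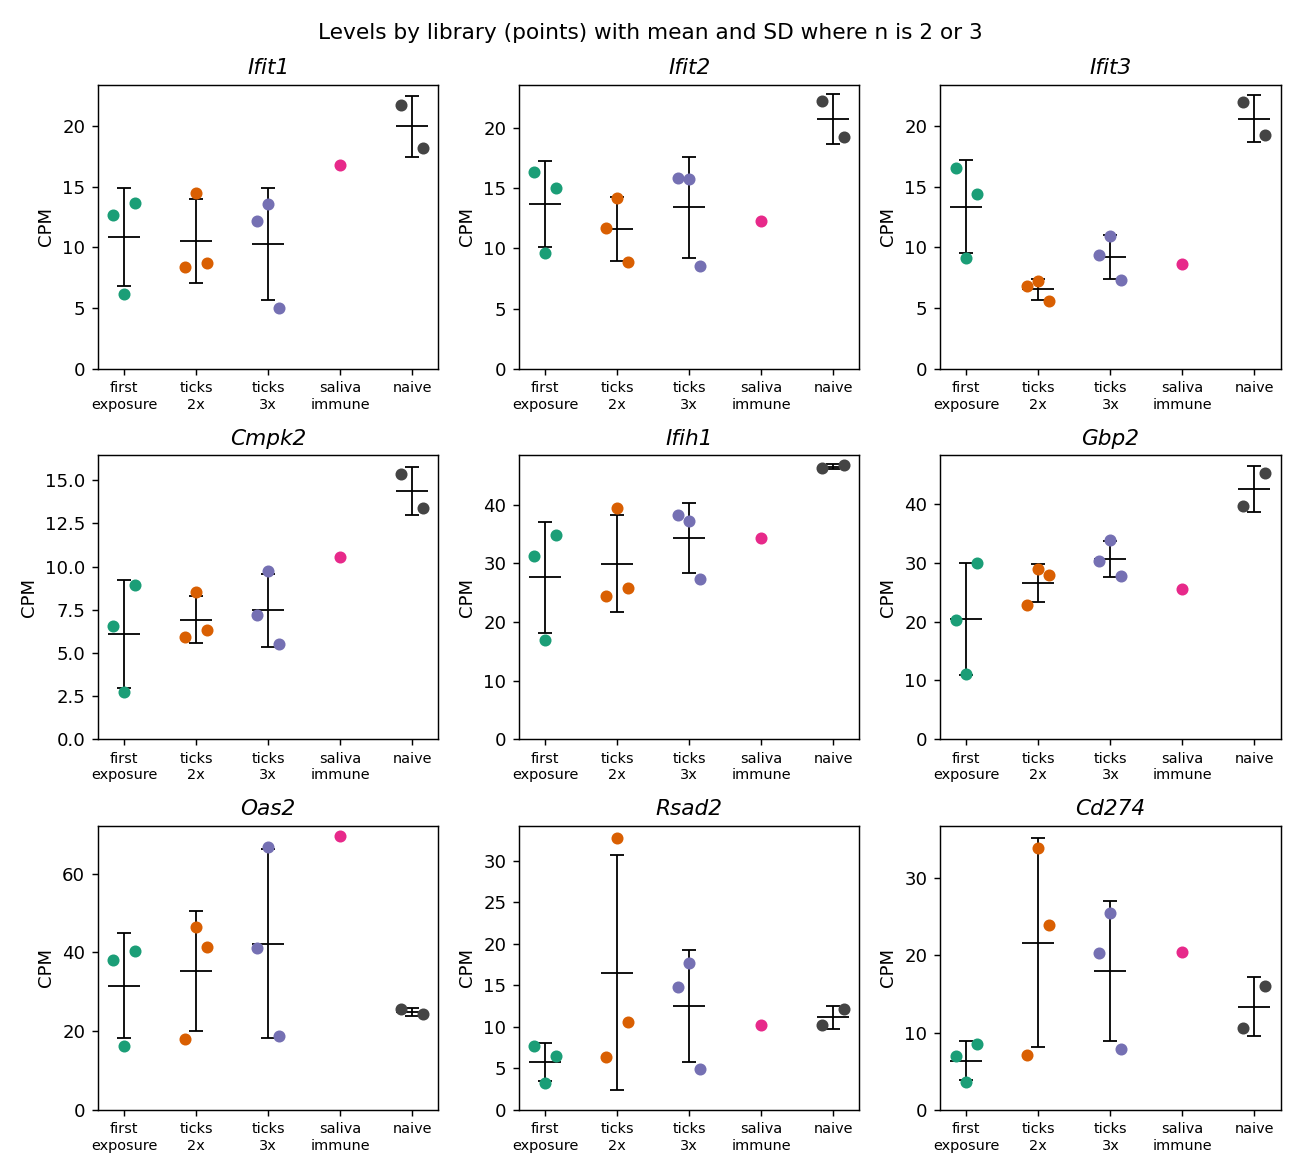
CPM per library (points) with the mean and SD where a group has 2 or 3 libraries, for 9 of the 35 genes, in first exposure, ticks 2x, ticks 3x, saliva immune and naive skin. Ifit1, Ifit2, Ifit3, Cmpk2, Ifih1 and Gbp2 show both naive libraries above every library of the 3 tick groups, while Oas2, Rsad2 and Cd274 show bitten libraries on both sides of naive skin.

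The sensors of foreign nucleic acid all lay lower on average. Ifih1, the sensor of long duplex RNA, had 31.2, 16.9 and 34.9 CPM after first exposure, 24.5, 39.5 and 25.9 CPM in 2x and 38.3, 37.2 and 27.4 CPM in 3x, against 46.2 and 46.8 CPM in naive skin (-0.63, SE 0.27, limma adjusted p = 0.433). Ddx58, the RIG-I sensor of short RNA ends, had 17.7 to 35.3 CPM in the bitten libraries and 36.4 and 36.7 CPM in naive skin (-0.51, SE 0.26, limma adjusted p = 0.519). Neither overlapped naive skin. Dhx58, the relative of both that lacks a signalling domain, averaged 7.80 CPM in bitten and 8.54 CPM in naive skin (-0.19). Zbp1, a sensor of left-handed nucleic acid that can trigger cell death, had 12.5, 7.19 and 18.2 CPM after first exposure, 7.13, 15.4 and 11.2 CPM in 2x and 12.9, 13.7 and 4.63 CPM in 3x, against 15.8 and 11.9 CPM in naive skin (-0.34). Both overlapped naive skin.

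The factors that carry the signal to DNA had a median fold change of -0.03. Stat2, which carries the signal of the type I receptor, averaged 49.0 CPM in bitten and 48.7 CPM in naive skin (-0.03), and Irf9, which binds the response element with it, averaged 42.0 and 38.8 CPM (0.06). Irf7, the factor that amplifies type I interferon production, had 48.5, 27.6 and 44.0 CPM after first exposure, 26.6, 29.0 and 21.2 CPM in 2x and 28.4, 29.5 and 15.1 CPM in 3x, against 31.7 and 26.8 CPM in naive skin. First exposure replicates 1 and 3 were above all 8 libraries of the other title series, and the fold change was 0.41 for first exposure and -0.25 for 2x and 3x together, each against naive skin, with neither called.

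The OAS family makes the oligoadenylates that switch on RNase L, although mouse Oasl1 lacks that activity. Oas2 was the member with the highest fold change, 37.9, 16.1 and 40.3 CPM after first exposure, 17.9, 46.5 and 41.3 CPM in 2x and 41.1, 66.6 and 18.7 CPM in 3x, against 25.5 and 24.2 CPM in naive skin (bitten against naive 0.39, SE 0.50, limma adjusted p = 0.82). In each of the 3 tick groups 1 library was below and the other two above naive skin. The other 4 had fold changes below 0, at -0.03 for Oas1a, -0.26 for Oas3, -0.49 for Oasl1 and -0.57 for Oasl2. Oasl2 had 36.8, 19.1 and 38.5 CPM after first exposure, 19.8, 28.5 and 23.4 CPM in 2x and 31.0, 34.6 and 14.1 CPM in 3x, against 45.6 and 33.6 CPM in naive skin. Oas1a has several close copies in the mouse, among which reads may be split.

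Isg15 encodes a small protein that is attached to others like ubiquitin, and Usp18 the protease that removes it and damps the type I receptor. Isg15 had 10.2, 4.83 and 8.33 CPM after first exposure, 5.77, 11.5 and 5.36 CPM in 2x and 5.96, 5.33 and 3.22 CPM in 3x, against 9.09 and 7.36 CPM in naive skin. All 3x libraries were below both naive libraries, and the other groups overlapped them (bitten against naive -0.33, limma adjusted p = 0.755). Usp18 had 6.82, 3.79 and 11.4 CPM after first exposure, 7.08, 12.2 and 12.2 CPM in 2x and 12.3, 16.5 and 15.4 CPM in 3x, against 13.8 and 15.2 CPM in naive skin. Its first exposure libraries lay below naive skin (-1.0, SE 0.37, limma adjusted p = 0.237) and its 3x libraries above first exposure (1.01, SE 0.33, limma adjusted p = 0.208), with no overlap in either case and no call. Without first exposure replicate 2 these stood at -0.65 and 0.66.

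Of the 13 other antiviral effectors, 12 had a fold change below 0 in bitten against naive skin. Cmpk2, a mitochondrial nucleotide kinase, had 6.57, 2.73 and 8.93 CPM after first exposure, 5.95, 8.51 and 6.33 CPM in 2x and 7.20, 9.72 and 5.53 CPM in 3x, against 15.4 and 13.4 CPM in naive skin (-1.03, SE 0.33, limma adjusted p = 0.312). No bitten library came near the naive level. Rsad2, the viperin enzyme that makes a chain-terminating nucleotide, is the neighbour of Cmpk2 on chromosome 12 and shared its pattern only after first exposure. There Rsad2 had 7.66, 3.23 and 6.51 CPM, all below the 10.2 and 12.1 CPM of naive skin. It had 6.39, 32.7 and 10.6 CPM in 2x and 14.8, 17.7 and 4.88 CPM in 3x, on both sides of naive skin. Its fold change in bitten against naive skin was -0.23 (SE 0.57), and ticks 2x replicate 2 held its highest level.

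Mx2, a dynamin-like GTPase that GENCODE lists as a polymorphic pseudogene, averaged 4.45 CPM in bitten and 7.63 CPM in naive skin (-0.71, SE 0.31, limma adjusted p = 0.444), without overlap, while Mx1, its relative in the nucleus, averaged 3.94 and 4.15 CPM (-0.18). Gbp3, a guanylate-binding GTPase, averaged 11.7 CPM and 18.5 CPM (-0.66), and Rtp4, a chaperone of receptors that also binds viral RNA, 12.1 CPM and 18.6 CPM (-0.63), both without overlap. Ifi44, an antiviral protein whose mechanism is little known, stood at -0.69 with overlap. Parp14, an ADP-ribosyltransferase, averaged 47.9 CPM in bitten and 61.1 CPM in naive skin (-0.43), and Trim30a, a mouse regulator of innate signalling, 31.8 and 35.8 CPM (-0.33). The remaining members were near naive skin, with Xaf1, a partner of an apoptosis inhibitor, at -0.16, Ifi35 at -0.09 and the exonuclease Isg20 at -0.01. Bst2, which tethers budding viruses to the cell, had 19.1, 12.4 and 25.8 CPM after first exposure, 15.3, 23.5 and 27.6 CPM in 2x and 22.5, 18.1 and 12.2 CPM in 3x, against 18.97 and 16.5 CPM in naive skin (0.09).

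The gamma-leaning members differed in their overlap with naive skin, while all but Cxcl9 had a fold change below 0 in bitten against naive skin. Every gamma-leaning member was below 0 after first exposure, and all but Gbp2 were above 0 in 2x and 3x together. Gbp2, a GTPase that attacks the membranes around intracellular parasites, had 20.2, 11.0 and 30.1 CPM after first exposure, 22.9, 29.0 and 27.9 CPM in 2x and 30.3, 33.9 and 27.8 CPM in 3x, against 39.8 and 45.3 CPM in naive skin. It lay below both naive libraries in every bitten library (-0.75, SE 0.28, limma adjusted p = 0.376). Cd274, the checkpoint ligand PD-L1, had 6.97, 3.57 and 8.48 CPM after first exposure, 7.09, 33.9 and 23.9 CPM in 2x and 20.4, 25.5 and 7.90 CPM in 3x, against 10.6 and 16.1 CPM in naive skin. All first exposure libraries were below naive skin, and in 2x and in 3x 2 libraries were above it and 1 below. Irf1, a transcription factor that interferon gamma raises, had 16.0, 10.7 and 23.9 CPM after first exposure, 20.6, 41.2 and 34.5 CPM in 2x and 34.5, 36.7 and 22.4 CPM in 3x, against 24.1 and 35.5 CPM in naive skin.

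The T cell attracting chemokines were near the bottom of the measured range. Cxcl9 had 1.36, 1.06 and 1.04 CPM after first exposure, 1.77, 1.64 and 0.869 CPM in 2x and 3.50, 2.52 and 1.54 CPM in 3x, against 1.58 and 1.52 CPM in naive skin. Cxcl10 had 0.769, 0.446 and 2.50 CPM after first exposure, 1.38, 5.39 and 2.42 CPM in 2x and 3.31, 1.40 and 0.747 CPM in 3x, against 1.71 and 2.24 CPM in naive skin. All of these were above the floor of 3 reads, and for Cxcl10 every group overlapped naive skin. In bitten against naive skin, the sign of Cxcl9 (0.03) turned with the scaling of the libraries.

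Against naive skin, 27 of 30 type I-leaning members (median -0.48) and all 5 gamma-leaning members (median -0.83) were below 0 after first exposure, where 42.1% of all genes were below 0. Called were 0 of 35 members and 2 of all genes (0.0117%), and 6 of the 30 and 1 of the 5 were lower at an unadjusted p under 0.05 (6.32% of all genes lower, 16.4% in either direction). The libraries did not overlap for 12 of the 30 and 4 of the 5 (14.0% of all genes). The members with the smallest p were Gbp2 (-1.12, SE 0.33, limma adjusted p = 0.151), Cmpk2 (-1.23, SE 0.39, limma adjusted p = 0.169) and Usp18. Without first exposure replicate 2 the type I-leaning median was -0.26 with 19 of 30 below 0, and the gamma-leaning median -0.56 with 5 of 5. All 10 leukocyte genes were below 0 in this comparison too (median -0.39). With their mean as a covariate, added after seeing the data, the type I-leaning median was -0.25 and the gamma-leaning median -0.57. Bst2 turned its sign with the scaling.

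The repeat exposures shared the naive libraries with that comparison and their own title series. In 2x, 22 of 30 type I-leaning members were below 0 (median -0.29; 48.1% of all genes) and 3 of 5 gamma-leaning members above it (median 0.07), with 0 of 35 called against 6 genes in all (0.0352%). Ifit3 was at -1.52 (SE 0.26, limma adjusted p = 0.175), Ifit2 at -0.81 (limma adjusted p = 0.404) and Cmpk2 at -0.97 (limma adjusted p = 0.412), the 3 members that were lower at an unadjusted p under 0.05 (5.23% of all genes lower, 10.9% in either direction). The type I-leaning median was -0.07 without ticks 2x replicate 1, -0.54 without ticks 2x replicate 2 and -0.14 without naive replicate 1. The gamma-leaning median lay between -0.13 (without ticks 2x replicate 2) and 0.35 (without ticks 2x replicate 1). In 3x, 25 of 30 were below 0 (median -0.28; 46.8% of all genes) and 3 of 5 above it (median 0.06), with 0 of 35 called against 1 gene in all (0.00586%). Ifit3 was at -1.09 (SE 0.26, limma adjusted p = 0.433), Cmpk2 at -0.89 (limma adjusted p = 0.714) and Ifit1 at -1.0 (limma adjusted p = 0.718), again the 3 members lower at an unadjusted p under 0.05 (2.12% of all genes lower, 6.95% in either direction). The type I-leaning median was -0.03 without ticks 3x replicate 3, with 17 of 30 below 0, -0.18 without naive replicate 1 and -0.50 without ticks 3x replicate 2. The gamma-leaning median lay between -0.21 (without naive replicate 1) and 0.33 (without naive replicate 2), and Ifit1 was at -0.59 without ticks 3x replicate 3. Of the 30, 11 in 2x and 10 in 3x lay below both naive libraries in all 3 libraries, and 1 of the 5 in each, against 12.8% and 9.58% of all genes.

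With 2x and 3x as 1 set against naive skin, 23 of 30 type I-leaning members were below 0 (median -0.27; 47.0% of all genes) and 4 of 5 gamma-leaning members above it (median 0.08). Called were 0 of 35, against 7 genes in all (0.041%), and 4 of the 30 were lower at an unadjusted p under 0.05 (3.96% of all genes lower, 9.74% in either direction). All 6 libraries lay below both naive libraries for 9 of the 30 and 1 of the 5, against 5.29% of all genes, and above both for none, against 6.41%. Ifit3 averaged 7.87 CPM over the 6 libraries, against 20.6 CPM in naive skin. Cmpk2 was at -0.93 (SE 0.35, limma adjusted p = 0.455) and Ifit2 at -0.72 (SE 0.28, limma adjusted p = 0.461). The type I-leaning median was -0.13 without ticks 3x replicate 3, -0.16 without ticks 2x replicate 1, -0.17 without naive replicate 1 and -0.44 without ticks 2x replicate 2. The gamma-leaning median lay between -0.05 (without naive replicate 1) and 0.23 (without ticks 3x replicate 3). The signs of Oas1a and Stat2 turned with the scaling here, those of Usp18 and Ifi35 in 3x, and none in 2x.

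**Figure D3:**
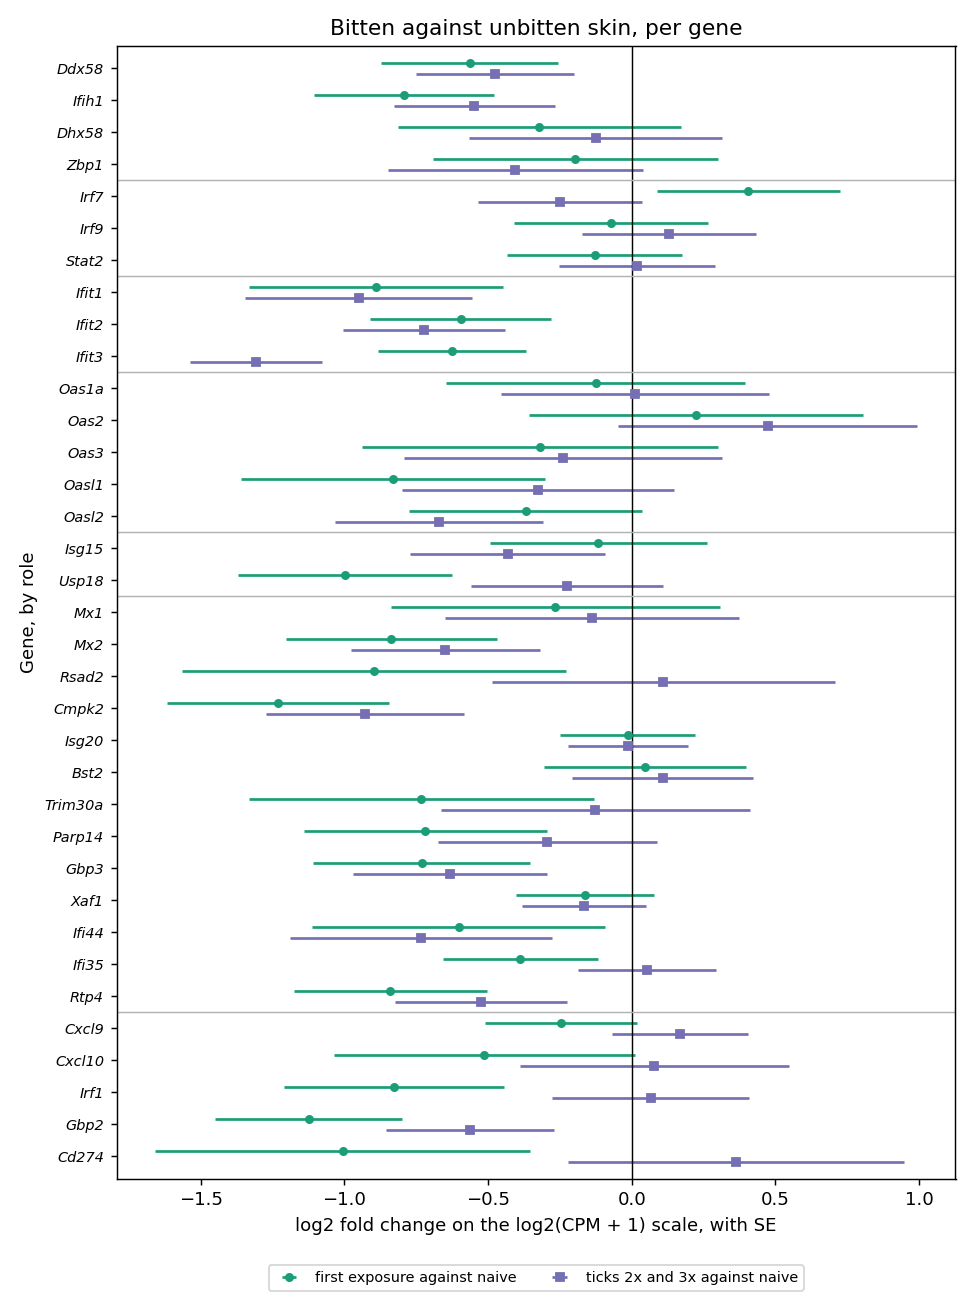
Log2 fold change on the log2(CPM + 1) scale with its standard error for each of the 35 genes by role, for first exposure against naive skin (circles) and for ticks 2x and 3x together against naive skin (squares); both share the naive libraries. Ifit3 at -1.31 is the lowest of the squares and Cmpk2 at -1.23 the lowest of the circles, and Cd274, Irf1 and Rsad2 are among the genes with circles left of 0 and squares right of it.

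Set directly against first exposure, the gamma-leaning members all had fold changes above 0 in both repeat groups, with no member called. The leukocyte genes lay on the same side, with all 10 above 0 in 2x (median 1.23) and in 3x (median 0.86). With the leukocyte mean as a covariate, added after seeing the data, the gamma-leaning median was 0.01 in 2x, with 2 of 5 below 0, and 0.37 in 3x, with 1 of 5 below 0 (Cxcl10 at -0.34). The part of the leukocytes in this difference was not tested further. In 2x against first exposure 5 of 5 gamma-leaning members were above 0 (median 0.85) and 20 of 30 type I-leaning members (median 0.10), with 0 genes of any kind called (0.0%). Of all genes, 58.7% were below 0 in that comparison. Cd274 was at 1.45 (SE 0.58, limma adjusted p = 0.28) and Irf1 at 0.90 (SE 0.34, limma adjusted p = 0.263), both with overlapping libraries, while Ifit3 was at -0.90 (SE 0.23, limma adjusted p = 0.153) without overlap (10.8% of all genes lower and 6.9% higher without overlap). In 3x against first exposure 5 of 5 (median 0.68) and 20 of 30 (median 0.12) were above 0, again with 0 genes called (0.0%). There 53.8% of all genes were below 0. Cxcl9 was at 0.68 (SE 0.24, limma adjusted p = 0.218) without overlap (9.06% of all genes higher) and Irf1 at 0.89 (SE 0.34, limma adjusted p = 0.242) with it. At an unadjusted p under 0.05, 1 type I-leaning member was lower and 2 gamma-leaning members were higher in 2x against first exposure, and 1 type I-leaning member was lower while 1 type I-leaning and 3 gamma-leaning members were higher in 3x. At that level 15.9% of all genes differed in 2x (9.39% lower) and 17.8% in 3x (9.58% lower). The type I-leaning medians turned to -0.17 in 2x and -0.13 in 3x without first exposure replicate 2, and also below 0 without ticks 2x replicate 2 (-0.08) and without ticks 3x replicate 2 (-0.12). The gamma-leaning median was 0.46 without ticks 2x replicate 2 in 2x, and 0.61 without first exposure replicate 2 in 3x. Ifit1, Isg15, Oas3 and Xaf1 in 2x and Ifit2 in 3x turned their sign with the scaling. Both comparisons also cross the title series, which cannot be told apart from first exposure.

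Between the repeat exposures, no member was called. In 3x against 2x, 15 of 30 type I-leaning members were above 0 and 15 below it (median 0.01), and 2 of 5 gamma-leaning members were above 0 (median -0.02), with 0 genes called (0.0%) and no member at an unadjusted p under 0.05 (5.15% of all genes). Of all genes, 44.9% were below 0. The 3 members with the smallest p were Cxcl9 at 0.52, Ifit3 at 0.43 and Isg15 at -0.51, each with limma adjusted p = 0.894. Cxcl9 was at 0.33 without ticks 3x replicate 1, and Isg15 at -0.20 without ticks 2x replicate 2. Ifit3 was higher in every 3x than in every 2x library (7.3% of all genes), and the sign of Ddx58 turned with the scaling. The type I-leaning median moved between -0.21 and 0.30 when 1 library was left out, the ends being without ticks 3x replicate 2 and without ticks 3x replicate 3. The gamma-leaning median lay between -0.30 (without ticks 2x replicate 1) and 0.27 (without ticks 3x replicate 3).

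The same few libraries were low or high for most members. First exposure replicate 2 held the lowest value for 21 of the 35 members and ticks 3x replicate 3 for 10, while ticks 2x replicate 2 held the highest for 10 and naive replicate 1 for 8. On the log2(CPM + 1) scale the mean of the 30 came, after first exposure, to 3.97, 3.19 and 4.16, and to 3.51, 4.33 and 3.85 in 2x and 4.09, 4.30 and 3.32 in 3x, against 4.31 and 4.15 in naive skin. The same libraries differed in leukocyte content, read from the mean of 10 leukocyte genes, which came, after first exposure, to 4.66, 3.87 and 5.77, and to 5.37, 6.74 and 6.11 in 2x and 6.08, 6.27 and 4.79 in 3x, against 5.37 and 5.09 in naive skin. The lowest leukocyte mean of first exposure and of 3x, and the highest of 2x, belonged to the libraries that were lowest and highest in the type I-leaning mean. These libraries also differed in other tissue. First exposure replicate 2 had the highest hair follicle mean of the 12 libraries (9.18). Ticks 3x replicate 3 had the highest means of 10 skeletal muscle genes (11.0) and of 10 adipocyte genes (7.89). In ticks 2x replicate 2 these 3 means were 2.87, 7.16 and 6.89. With a hair follicle covariate, no member was called in any comparison. The type I-leaning median stayed negative with it in every comparison with naive skin. The part of skeletal muscle and adipocytes in the members' levels was not tested. In whole skin, fewer cells of a type and less RNA per cell cannot be told apart.

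**Figure D4:**
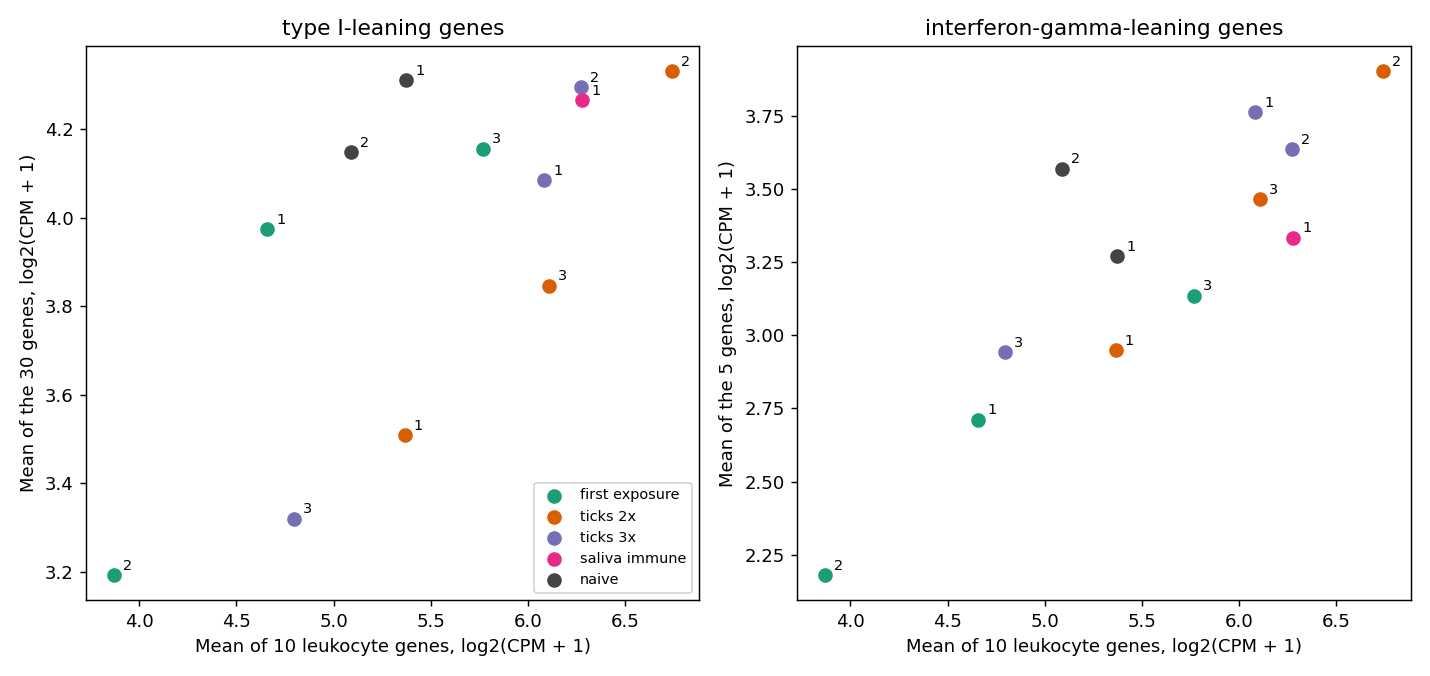
Mean of the 30 type I-leaning genes (left) and of the 5 interferon-gamma-leaning genes (right) against the mean of 10 leukocyte genes, all on the log2(CPM + 1) scale, with 1 point per library coloured by group and numbered by replicate. Naive libraries lie at 4.31 and 4.15 on the left-hand vertical axis with leukocyte means of 5.37 and 5.09. Ticks 2x replicate 2 lies above both at 4.33. Ticks 3x replicate 2 (4.30), saliva immune (4.27) and first exposure replicate 3 (4.16) lie between them, and the remaining bitten libraries lie below both.

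All 10 leukocyte genes were above 0 in 2x (median 0.69) and in 3x (median 0.35) against naive skin, none of them called, while all 10 were below 0 after first exposure (median -0.39). The summed level of the 10 was 173 to 689 CPM after first exposure, 499 to 1426 CPM in 2x and 343 to 1055 CPM in 3x, against 429 to 516 CPM in naive skin. With the leukocyte mean as a covariate, chosen after seeing the data, all 30 type I-leaning members were below 0 in 2x against naive skin (median -0.84) and in 2x and 3x together (median -0.74), and still 0 of 35 members were called. Ifit3 then stood at -1.72 in 2x (SE 0.24, limma adjusted p = 0.058) and at -1.15 over all bitten groups (SE 0.19, limma adjusted p = 0.0851). With the same covariate 19 of 30 were below 0 after first exposure (median -0.25), and all 30 in 2x against first exposure (median -0.58). The gamma-leaning median with this covariate was -0.31 in 2x and -0.21 in 3x, each against naive skin. The part of the leukocytes in the members' levels was not tested further.

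As a description over the 12 libraries, which share depth and cell content, the 30 type I-leaning members correlated with each other with a median Pearson r of 0.67 (435 pairs), the 5 gamma-leaning members with 0.58 (10 pairs) and members of the 2 sets with 0.49 (150 pairs). Ddx58 (0.94), Trim30a (0.94) and Parp14 (0.92) followed the mean of the other type I-leaning members most closely, and Ifit3 (0.39) and Irf7 (0.40) least. Ifit3 also differed from most in its relation to the leukocyte mean, with r = -0.28 over 12 libraries, where Ifi35 (0.92), Cd274 (0.90), Irf1 (0.88) and Trim30a (0.88) followed it closely. Of 12493 other genes with a mean of at least 5 CPM, the 10 most like the type I-leaning mean were Slfn8 (r = 0.96), Lgals9 (0.96), Eif2ak2 (0.96), Sp100 (0.95), Mov10 (0.94), Grk5 (0.93), LOC102641031 (0.93), Tspyl3 (0.92), Parp12 (0.92) and Sepn1 (0.92), each over 12 libraries. Of these, 4 stand in the lists of other interferon-related genes described next.

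The rest of the pathway was read from lists, in which limma called no gene in bitten against naive skin. At an unadjusted p under 0.05, 1 of 16 receptor and signalling genes was higher and 0 of 17 sensing genes differed. At that level 3 of 36 further interferon-stimulated genes and 7 of 25 further genes of the interferon gamma response were lower, against 4.74% of all genes lower and 11.2% in either direction. Of 11 ligands searched by symbol, only Ifng, made by lymphocytes, had a row. It was at 0.0001 to 0.243 CPM over the libraries, at or near the floor of 3 reads, and was too low to be tested. Of 16 receptor and signalling genes, 12 were above 0 (median 0.19). The kinase Jak1 and the feedback inhibitor Socs3, the 2 genes of this list with the highest mean CPM, were at -0.34 and -0.54. Of 17 nucleic acid sensing genes 11 were above 0 (median 0.11), with Samhd1 at 0.17 and Ifi204 at -0.15.

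The other interferon-stimulated genes lay on the same side as the members. Of 36 tested further interferon-stimulated genes, 26 were below 0 (median -0.20), with Ifitm2, which hinders viral entry, at 0.21 and Slfn5 at -0.55. Of 25 tested further genes of the interferon gamma response, 24 were below 0 (median -0.40), with Serping1, the complement inhibitor, at -0.35 and Nlrc5, the activator of MHC class I genes, at -0.02. In each of these lists the libraries of 5 genes lay below naive skin without overlap, against 3.31% of all genes. Outside the naming rule and chosen after their values were seen, Ido1, the tryptophan-degrading enzyme that interferon gamma raises, averaged 0.0611 ± 0.0716 CPM after first exposure, 0.142 ± 0.202 CPM in 2x and 0.322 ± 0.0703 CPM in 3x, against 3.91 ± 3.49 CPM in naive skin, where the libraries stood at 1.44 and 6.38 CPM (-1.86, SE 0.33, limma adjusted p = 0.158). Its bitten levels were at or near the floor of 3 reads, so that this fold change depends on the pseudocount. Iigp1, an immunity-related GTPase, averaged 13.9 ± 5.88, 17.4 ± 4.19 and 18.2 ± 5.23 CPM in the same 3 groups, against 39.5 ± 4.53 CPM in naive skin (-1.27, SE 0.33, limma adjusted p = 0.25). Both lay below naive skin in every bitten library of the 3 groups.

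The saliva immune library, a single sample with no test, did not follow the other bitten libraries in all members. It was above both naive libraries for 15 of the 35 members and below both for 15, where 44.6% of 17176 genes with at least 1 CPM in 2 libraries were above both and 29.8% below both. It held the highest level of all 12 libraries for 6 of 35 members (17.1%), against 6.61% of those genes. Its leukocyte mean was 6.28, against 5.37 and 5.09 in naive skin, and only ticks 2x replicate 2 was higher at 6.74. Over the 12 libraries Irf1 (r = 0.88), Oas2 (0.79), Mx1 (0.72), Stat2 (0.72), Xaf1 (0.60) and Mx2 (0.58) correlated with that mean, and its part in their levels was not tested. Mx1 was at 12.1 CPM, against 7.48 CPM in the next library, ticks 3x replicate 2, and Stat2 at 91.2 CPM, against 63.4 CPM in the same library. The others were Oas2 (69.4 CPM), Irf1 (46.6 CPM), Xaf1 (13.2 CPM) and Mx2 (8.93 CPM). The IFIT genes did not share this: Ifit1 was at 16.8 CPM, Ifit2 at 12.3 CPM and Ifit3 at 8.66 CPM, all below both naive libraries. Gbp2 (25.5 CPM), Cxcl9 (0.897 CPM) and Cxcl10 (1.01 CPM) were also below both, and Cd274 (20.5 CPM) above both.

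**Figure D5:**
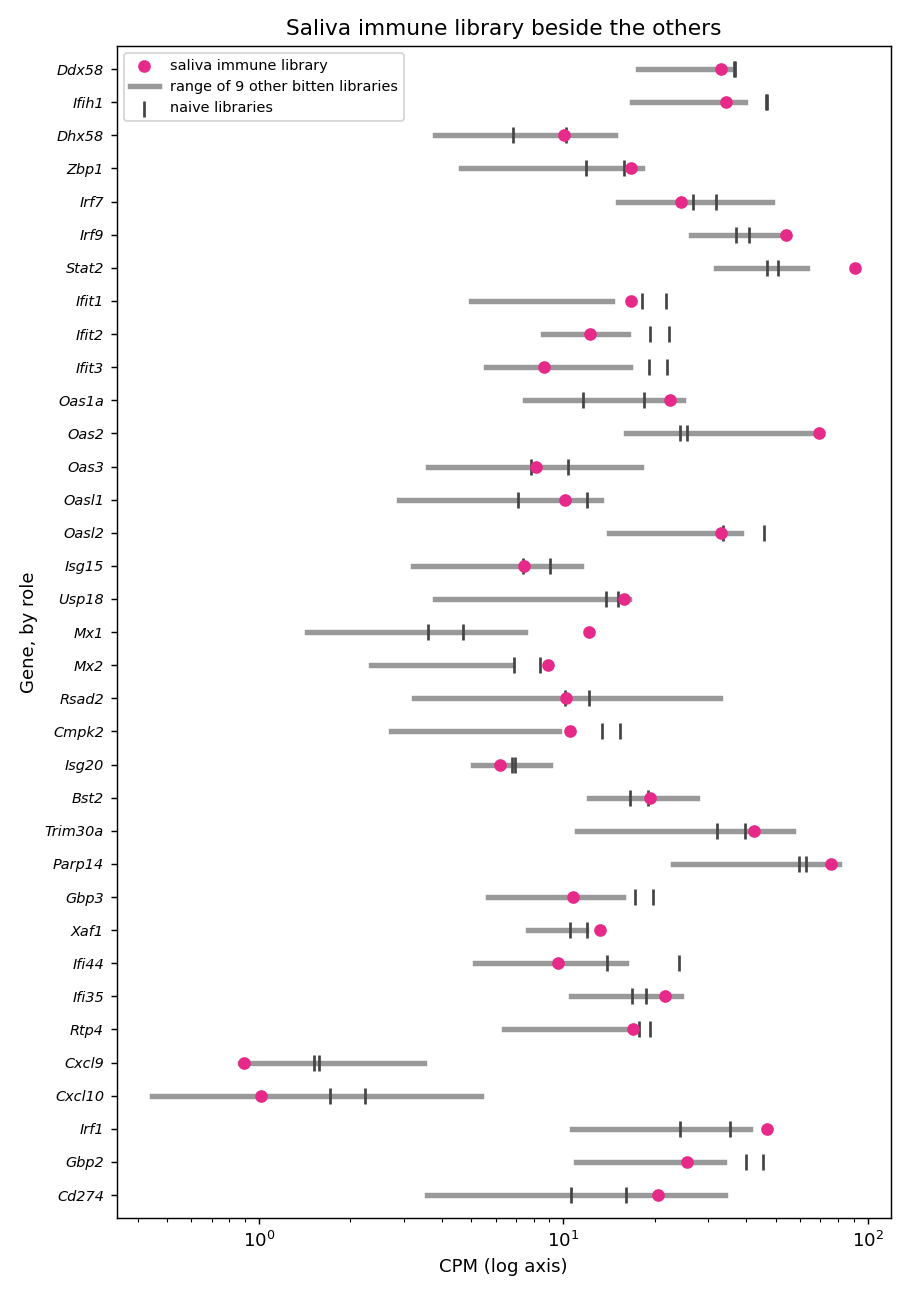
CPM on a log axis of the 35 genes by role in the saliva immune library (points), with the range of the 9 libraries of the 3 tick groups (grey bars) and the naive libraries (ticks). The points of Mx1, at 12.1 CPM, and Stat2, at 91.2 CPM, lie clearly right of bar and ticks, and those of Ifit2, Ifit3 and Gbp2 lie left of both naive ticks.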

How the data were processed

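Total RNA of mouse skin was sequenced in 12 libraries. The submitters' processing notes name STAR, Partek (version 8.0.19) and the build GRCm38.p6, and the counting program is not given in the sources used here. The authors deposited CPM, with 0.0001 added to every value. No count test was run, since only 73.4% to 79.3% of values between 0.01 and 3 CPM were whole reads within 0.02. Depth was estimated from that step, and the floor of 3 reads covers counting error only.

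Groups were compared with limma 3.58.1 (R 4.3.3, trend) on log2(CPM + 1) in 1 fit of 11 libraries and 4 groups (7 residual degrees of freedom), keeping genes that reached 1 CPM in 2 or more libraries, and checked on simulated data. All 35 members passed that filter. Saliva immune (n = 1) was described only. Bitten means the equal-weight mean of first exposure, 2x and 3x. The members and lists were chosen with earlier results of these data known. Named were called members, the 3 with the smallest p per comparison, the 5 with the highest CPM, 12 fixed members, the 2 highest genes per pathway list, Ifng, and the 10 genes most like the type I-leaning mean. Another gene that the rule names is not reported here. Exon lengths and coordinates come from GENCODE mouse release 21 (GRCm38) and promoters from RefSeq. Alternatives were other pseudocounts (0.5, 0.1), no filter or 5 CPM, median-of-ratios scaling, quantile normalization, fits of the groups compared only, robust moderation, array weights, a hair follicle covariate and leaving out each library. Leukocyte and macrophage covariates, and leaving out first exposure replicate 2 with ticks 3x replicate 3, were added after seeing the data. The table holds 25 symbols converted to dates, none of them a member. Tables were handled with pandas 2.3.3 in Python 3.11.15.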

Additional observations from a re-analysis of the deposited data

Results flagged for a closer look

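In the saliva immune library, which no comparison used, 6 of 35 members (17.1%) were above every other library and so above both naive libraries. Of 17176 genes with at least 1 CPM in 2 libraries, 6.61% were above every other library. Mx1 was at 12.1 CPM, against 4.71 CPM in the higher naive library and 7.48 CPM in ticks 3x replicate 2, the next highest library. Oas2 was at 69.4 CPM, against 25.5 CPM in the higher naive library and 66.6 CPM in ticks 3x replicate 2. Stat2 was at 91.2 CPM, against 50.6 CPM and 63.4 CPM in the same libraries. Irf1 was at 46.6 CPM, against 35.5 CPM in the higher naive library and 41.2 CPM in ticks 2x replicate 2. For Mx2 (8.93 CPM, against 8.39 CPM) and Xaf1 (13.2 CPM, against 12.02 CPM) the next highest library was a naive one. The leukocyte mean of this library was 6.28, against 5.37 and 5.09 in naive skin. With a single library these differences were not tested, and saliva immunity cannot be told apart from that library. No group of the fit has 4 or more libraries, so no formal check for a library that stands apart was run within a group. First exposure replicate 2 and ticks 3x replicate 3 were picked out after seeing the data.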

How the results depend on the processing

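The count of called members was 0 in all 8 comparisons and stayed 0 under every alternative except 2. With array weights, whose fit did not converge, 8 members were called in first exposure against naive skin, among 1753 of 17064 genes (10.3%). In 3x against first exposure 13 members were called, among 5078 genes (29.8%). Only Ifit3 was called in the other comparisons with naive skin. Its limma adjusted p was 0.0414 in 2x (34 genes called, 0.199%) and 0.0328 in 3x (276 genes, 1.62%). It was 0.0287 in 2x with 3x (147 genes, 0.861%) and 0.0234 in all bitten groups (427 genes, 2.5%). With 1 library left out the count ranged from 0 to 1 in first exposure against naive skin (Gbp2, limma adjusted p = 0.0331). It ranged from 0 to 2 in 3x against first exposure (among them Usp18, limma adjusted p = 0.0407). Each call came without first exposure replicate 3. That fit called 600 of all 16943 genes (3.54%) in the first comparison and 1372 (8.1%) in the second. The count was 0 to 0 in the other 6. The cause was not tested. With array weights the type I-leaning and gamma-leaning medians were 0.62 and 1.38 in 2x and 0.66 and 1.15 in 3x, each against first exposure. With the leukocyte and macrophage covariates the type I-leaning median was -0.84 and -0.87 in 2x against naive skin, -0.74 and -0.82 in 2x with 3x against naive skin, -0.58 and -0.52 in 2x against first exposure and -0.36 and -0.38 in 3x against first exposure, and the gamma-leaning median in 2x against first exposure was 0.01 and 0.06. The medians, which have no test, did not all keep their sign. The type I-leaning median kept it in 19 of 24 alternatives in 2x and 20 of 24 in 3x against first exposure and in 19 of 24 in 3x against 2x. The gamma-leaning median kept it in 21 of 23 for all bitten groups, 20 of 24 in 2x, 19 of 24 in 3x and 20 of 24 in 2x with 3x, each against naive skin, and in 18 of 24 in 3x against 2x. The other medians kept their sign in every alternative. The fit of the groups compared only gives nothing new for all bitten groups, which are the whole fit. No paired analysis was possible because the labels number the samples only within their titles, with nothing that ties a sample of 1 group to a sample of another. The naive group of 2 libraries limits every comparison with it.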
